A study of Mus musculus with 6 samples.

Results

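The 38 genes described here encode the transport machinery and the connecting cilium of photoreceptors. They were chosen by function, but with earlier results of these data known, so no score over them was tested. The list of gene symbols has 5 groups: 10 genes of IFT-B, 3 of IFT-A, 10 of the BBSome and its partners, 4 of the motors and 11 of the connecting cilium. Probe sets (groups of short oligonucleotides on an Affymetrix array) assigned to the gene alone were found for 36 of them, among 18193 genes in all; Arl6 and Rpgrip1l are not analysed here. Where a gene had several probe sets, the one with the highest mean stood for it, and none was removed for a low value, so all 36 enter every count given without another number.

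The outer segment of a photoreceptor is a modified primary cilium, joined to the cell body by a narrow connecting cilium through which its proteins pass. In intraflagellar transport (IFT), trains of the IFT-B and IFT-A complexes carry cargo along the cilium, moved outward by kinesin-2 motors and back by a dynein. The BBSome, a coat-like complex named after Bardet-Biedl syndrome, carries membrane proteins on these trains, and scaffolds of the connecting cilium and its base form a gate. Inherited loss of many of these genes is known to cause retinal degeneration.

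Retinal total RNA came from the albino inbred strain BALB/c and was measured on 6 arrays. All mice spent 1 week in the dark. The 3 dark adapted samples are the controls, and the mice of the 3 light damaged samples were then placed under white fluorescent light of 6000 lux for 6 h, with retinas taken 24 h after it. The labels give neither age nor sex and do not say whether the replicates of a group came from different animals. The spread behind each p-value is therefore that between samples and could be technical.

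Levels are on the log2 scale of RMA, the robust multi-array average, and a change is light damaged minus dark adapted on that scale. A gene was called when limma's p, adjusted by Benjamini-Hochberg over all 18193 genes, was under 0.05. Arrays of the same replicate number deviated from their group means together, so each test was run without and with the replicate number as a block, that is, within same-numbered pairs. The median of all probe sets lay between 6.15 and 6.18 on the 6 arrays, and 33 of the 36 genes had a mean above it on that scale. The upper quartile was less even. It was 7.65, 7.49 and 7.41 in dark adapted replicates 1, 2 and 3 and 7.67, 7.52 and 7.58 in the light damaged ones. The 14 rod markers measured had a mean level of 11.93 in dark adapted retinas. Markers of motile cilia, a different kind of cilium, lay between 3.75 and 6.82 over 8 genes, and their defining factor Foxj1 lay between 4.98 and 5.10, at the arrays' lower quartiles (4.98 to 5.11). Lens markers set the replicates apart: their mean level was 11.62 in dark adapted and 10.98 in light damaged replicate 3, and between 9.18 and 10.33 on the other 4 arrays.

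Because RFX transcription factors, which bind a DNA element called the X-box, are known regulators of cilium genes, and CRX is a known regulator of photoreceptor genes, the promoters were searched for both motifs. RefSeq windows of 300 bases (build GRCm38.p6, 250 bases before to 50 after an annotated start) were matched for 34 of the 38 genes, in 40 windows; Ift80, Ift81, Ift122 and Sdccag8 had no entry. The X-box motif, here GT and CC with any 2 bases between them, then any 3 bases, G, any 1 base and AAC, on either strand, was in 5 of the 40 windows (12.5%) and in 2.17% of the 32851 windows of all genes. The CRX motif TAATCC, on either strand, was in 3 of the 40 windows (7.5%; Mak, Rpgrip1 and Bbs1) and in 7.06% of all windows. No match of one motif overlapped a match of the other. The 5 X-box stretches are shown because they are the promoter letters that several of these genes share. Each runs 5′ to 3′ on the strand of its gene, with the 14 matched bases in capitals:
Bbs7: gccccgGTTGCCTTGGAAACcggcca
Nphp4: gtgcccGTCTCCTAGGTAACgcgcca
Bbs4: cagctgGTCGCCCGGGAAACggtcgg
Ift57: ggtctgGTTGCCGTGGTGACcggctg
Bbs1: gagctgGTTGCCAAGGCGACgcctgg
These stretches lie at chr3:36613491-36613516 (Bbs7, minus strand), chr4:152477905-152477930 (Nphp4, plus strand), chr9:59353466-59353491 (Bbs4, minus strand), chr16:49699201-49699226 (Ift57, plus strand) and chr19:4906607-4906632 (Bbs1, minus strand). The first capital lies 121 bases before the start in Bbs7, 231 before in Nphp4 and 87 before in Ift57, and 23 bases after the start in Bbs4 and 1 after in Bbs1. The Bbs7 match reads on both strands, and those of Ift57 and Bbs1 on the strand opposite to the gene. A match of letters is a description and does not show that a factor binds.

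Among the 36 genes, RNA of Rpgrip1, Bbs9, Lca5 and Ttc8 fell and RNA of Ift57 rose in light damaged retinas in the test with the replicate block. Rpgrip1, the scaffold that anchors RPGR in the connecting cilium, was 2.24-fold lower. Bbs9 and Ttc8, subunits of the BBSome, were 1.74-fold and 1.49-fold lower, and Lca5, which encodes the ciliary protein lebercilin, was 1.50-fold lower. Ift57, a subunit of IFT-B, was 1.47-fold higher. In the test without the block none of the 36 genes passed.

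Without the block, limma called 0 of the 36 genes lower (0.269% of all genes) and 0 higher (1.74% of all genes). At an unadjusted p under 0.05, 6 were lower (2.42% of all genes) and 1 was higher (8.58%). With the block, 4 were called lower (2.13% of all genes) and 1 higher (6.73%). Of the 36 changes, 28 were negative, as were 43% of those of all genes, and their median was -0.19, beside 0.03 for all genes. In 6 genes all light damaged arrays lay below all dark adapted ones (3.75% of all genes), and in 1 gene all lay above (11.9%). In 17 genes the light damaged array was the lower one in all 3 same-numbered pairs (16.8% of all genes), and in 2 genes, Ift57 and Kif17, the higher one (27.7%).

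**Figure D1:**
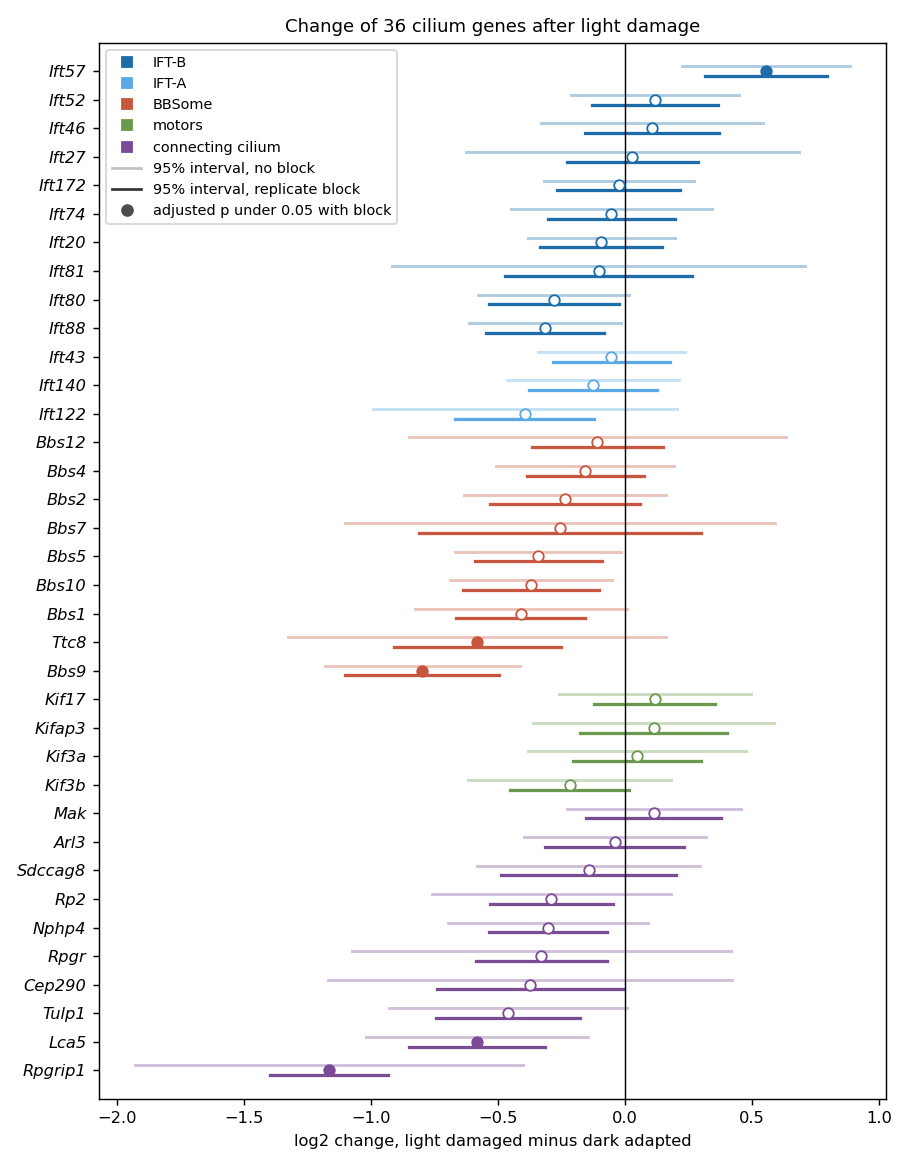
Log2 change, light damaged minus dark adapted (x axis), of the 36 genes by group (colour), with the 95% interval without the block (pale) and with the replicate block (dark); filled points passed an adjusted p of 0.05 with the block. Rpgrip1 lies at -1.17 and Ift57 at 0.56 on the deposited scale, and Ift57 at -0.04 where arrays were centred on reference genes.

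The scale bears on these directions. Reference centring used 5 genes with a mean change of 0.60, of which 4 had a positive change, so the references were not themselves level. B2m was called higher, at 2.04 (limma adjusted p = 0.00264), and Actb had 0.70 (0.091). Where each array was instead centred on these genes, the median change of all genes became -0.56. On that scale 33 of the 36 genes were called lower, but so were 65.6% of all genes, and 0 were called higher (1% of all genes). The median of the 36 genes lay 0.22 below that of all genes on the deposited scale and, because centring moves every gene alike, on this one. A further quantile normalization of the deposited values moved the balance of calls over all genes, to 0.89% lower and 1.79% higher, and 2 of the 36 genes, Bbs9 and Rpgrip1, were then called lower and 0 higher. The median of the 36 genes then lay 0.29 below that of all genes. Leaving out 1 array moved this difference on the deposited scale. It was -0.11 without dark adapted replicate 1 and -0.33 without light damaged replicate 1. With all probe sets of a gene averaged it was -0.15.

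Most rod and cone markers had negative changes in the same retinas. All 14 rod markers had a negative change (median -0.65), and 2 were called lower without the block (0.269% of all genes) and 9 with it (2.13%). Of the 9 cone markers measured, 7 had a negative change (median -0.48). Without the block 3 were called lower (0.269% of all genes), and with it 4 were called lower (2.13%) and 1 higher (6.73%). Gnb3, a transducin subunit on the cone list, went the other way, at 1.03 (limma adjusted p = 0.123, with the block 0.000827), with all light damaged arrays above all dark adapted ones. The median of the 6 bipolar markers was -0.03. Of 8 Müller glia markers, 1 was called higher (1.74% of all genes) and 0 lower without the block. With it 4 were called higher (6.73%), among them Vim at 1.67, and 2 lower (2.13%), Glul at -0.99 and Rlbp1 at -0.50. Of the 7 microglia markers measured, 1 was called higher (1.74% of all genes) and 0 lower (0.269%) without the block. With it 1, Cd68 at 1.88, was called higher (6.73%) and 1, P2ry12 at -0.48, lower (2.13%). The mean of the retinal pigment epithelium markers was 7.53 in light damaged replicate 2 and between 6.58 and 7.13 on the other 5 arrays. In these whole-retina samples, fewer photoreceptors and less RNA per photoreceptor cannot be told apart, and the part of the rod, cone, glial and pigment epithelium markers' changes in the cilium genes' values was not tested. Lens markers were also lower within each pair (differences of their mean of -0.50, -0.93 and -0.64). Of the 8 lens markers, 0 were called lower (0.269% of all genes) and 0 higher (1.74%) without the block. With it 3 were called lower (2.13%) and 0 higher (6.73%). Crygd, at -2.26, had the most negative change of all genes. The part of the lens markers was not tested either.

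The 5 groups had different medians, given as a description. The median change was -0.34 in the BBSome group and -0.32 in the connecting cilium group, where 9 of 9 and 9 of 10 genes were negative. It was -0.13 in IFT-A (3 of 3 negative) and -0.04 in IFT-B (6 of 10 negative, with the median at 0.12 without dark adapted replicate 1). In the motors it was 0.08 (1 of 4 negative), which turned to -0.52 with reference centring. Without 1 array, the median ranged from -0.45 to -0.24 in the BBSome group and from -0.51 to -0.10 in the connecting cilium group. In both, the smallest decrease came without dark adapted replicate 1.

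The mean log2 level of the BBSome genes was 8.92, 8.70 and 8.27 in dark adapted replicates 1, 2 and 3 and 8.44, 8.19 and 8.18 in the light damaged ones. That of the connecting cilium genes was 8.83, 8.50 and 8.13 in the dark adapted replicates and 8.39, 8.01 and 7.99 in the light damaged ones. In both groups light damaged replicate 1 lay above dark adapted replicate 3, so the arrays overlapped, while each light damaged array lay below the dark adapted array of its number. The differences within pairs 1, 2 and 3 were -0.48, -0.52 and -0.09 for the BBSome genes and -0.43, -0.49 and -0.15 for the connecting cilium genes. For IFT-B they were -0.12, -0.03 and 0.13, for IFT-A -0.32, -0.18 and -0.08, and for the motors -0.06, 0.06 and 0.05. Pair 3, the pair with the high lens markers, thus had the smallest decrease in the BBSome, connecting cilium and IFT-A groups.

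**Figure D2:**
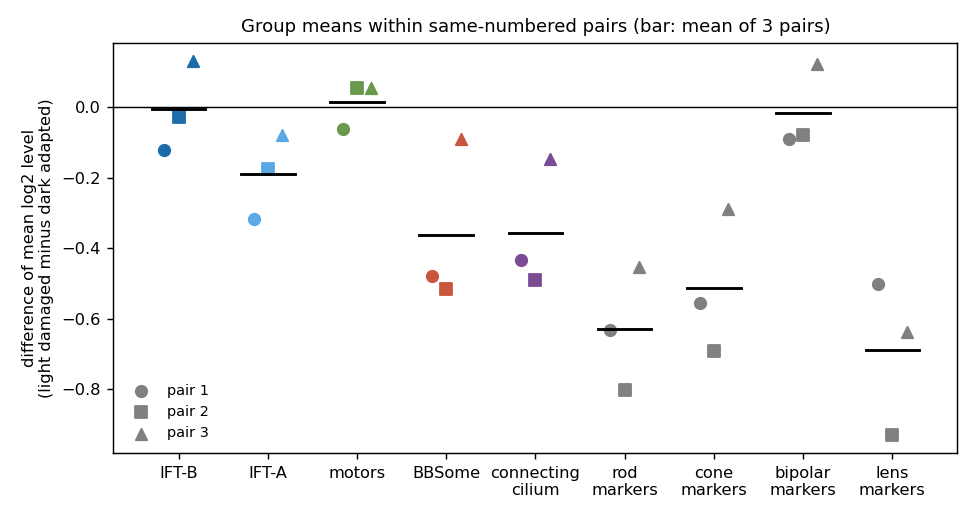
Difference of the mean log2 level, light damaged minus dark adapted (y axis), within each same-numbered pair of arrays (symbols) for the 5 groups of cilium genes and 4 marker lists (x axis), with a bar at the mean of the pairs. The IFT-B and motor bars lie at -0.01 and 0.02, the BBSome and connecting cilium bars at -0.36, and the rod and cone bars at -0.63 and -0.51, all on the deposited scale; with reference centring the motor median turns to -0.52.

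In the connecting cilium group, Rpgrip1 showed the largest change of the 36 genes. Its level was 10.87, 10.43 and 9.78 in dark adapted replicates 1, 2 and 3 and 9.66, 9.33 and 8.59 in light damaged replicates 1, 2 and 3. All 3 light damaged arrays lay below all 3 dark adapted ones, and replicate 3 was the lowest array of each group. The change was -1.17 (SE 0.33; limma adjusted p = 0.164) without the block, and with the block the SE was 0.10 and the adjusted p 0.000159. The difference was nearly the same in each pair, -1.20, -1.10 and -1.19.

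Rpgrip1 is read by 4 probe sets, which allowed the gene to be looked at again. Their changes were -1.17, -0.90, -1.18 and -1.05. In a limma fit over all probe sets, chosen after the data were seen, their adjusted p-values were 0.229, 0.385, 0.0391 and 0.43 without the block and 0.000789, 0.0144, 0.00156 and 0.00144 with it. The dark adapted and light damaged arrays overlapped in the probe sets with changes of -0.90 and -1.05 and were separate in the other 2.

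**Figure D3:**
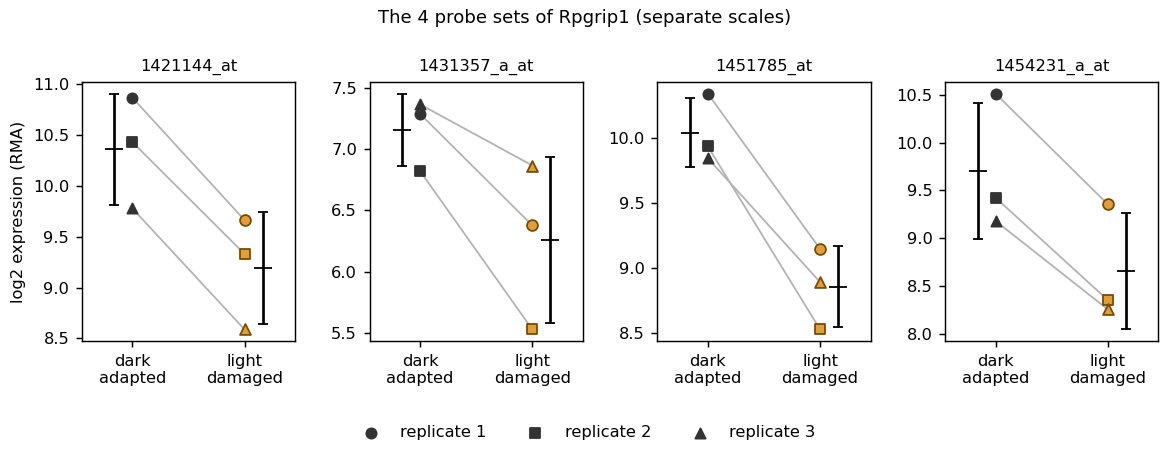
Log2 expression (y axis, a separate scale per panel) of the 4 Rpgrip1 probe sets in dark adapted and light damaged retinas; lines join arrays of the same replicate number, and bars give the mean and SD of 3 arrays. In each panel every line falls, with mean changes of -1.17, -0.90, -1.18 and -1.05.

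The upstream sequence of Rpgrip1 is printed because the gene had the largest change and one of the 3 CRX matches; it was chosen after its values were seen. The 250 bases before the start, at chr14:52110653-52110902 on the plus strand, 5′ to 3′, hold the match in capitals, here the reverse complement of the motif, with its first base 28 bases before the start:
Rpgrip1: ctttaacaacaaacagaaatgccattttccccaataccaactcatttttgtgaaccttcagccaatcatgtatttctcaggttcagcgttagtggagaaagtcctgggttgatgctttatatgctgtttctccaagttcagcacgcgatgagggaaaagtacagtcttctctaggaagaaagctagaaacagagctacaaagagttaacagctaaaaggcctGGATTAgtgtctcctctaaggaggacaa

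Lca5 had levels of 8.30, 8.13 and 7.71 in dark adapted replicates 1, 2 and 3 and 7.72, 7.32 and 7.35 in the light damaged ones. The groups overlapped only where light damaged replicate 1 lay just above dark adapted replicate 3, and each light damaged array was lower within its pair. The change was -0.58 (SE 0.19; limma adjusted p = 0.246, with the block 0.0158). A further probe set of Lca5 had a change of -0.03, so the gene's probe sets did not show the same difference.

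Tulp1, a photoreceptor protein needed for the transport of rhodopsin, was among the 3 genes with the highest probe set means. Its level was 12.80, 12.36 and 12.08 in the dark adapted and 12.17, 11.75 and 11.93 in the light damaged replicates. The groups overlapped, and the light damaged array was lower in every pair. The change was -0.46 (SE 0.20), and it did not pass without the block (limma adjusted p = 0.468) or with it (0.0538).

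Arl3, a small GTPase that releases lipid-modified cargo in the cilium, had levels of 11.37, 11.24 and 10.88 in the dark adapted and 11.19, 11.05 and 11.13 in the light damaged replicates. Its change was -0.04, with a 95% interval of -0.40 to 0.32, and it was lower in pairs 1 and 2 and higher in pair 3. Rp2, which stimulates the GTPase of Arl3, had a change of -0.29 (interval -0.76 to 0.18) and was lower in all 3 pairs. The other 4 Rp2 probe sets had changes between -0.11 and 0.01, and the mean of all 5 gave -0.08.

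Mak, a kinase that limits the length of photoreceptor cilia, had levels of 10.26, 10.43 and 9.97 in the dark adapted and 10.30, 10.37 and 10.34 in the light damaged replicates. The light damaged arrays lay close together, within the range of the dark adapted ones. The change was 0.11 (interval -0.23 to 0.46), the only positive one of this group, and it turned to -0.48 with reference centring and to -0.03 after a further quantile normalization.

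The other 4 genes measured in the connecting cilium group had changes between -0.37 and -0.14, and neither they nor Rp2, Arl3 and Mak passed in either test. Rpgr, the partner of Rpgrip1, had a change of -0.33 and was lower in all 3 pairs, with a wide interval of -1.07 to 0.42. Cep290, which links the microtubules of the transition zone to the membrane, had -0.37 (interval -1.17 to 0.42), with pair differences of -0.54, -0.74 and 0.17. Nphp4, a nephrocystin of the transition zone, had -0.30 and was lower in all 3 pairs, but its other probe set had 0.24, and the mean of both gave -0.03. Sdccag8, a protein of the centrosome, had -0.14, with a higher level in light damaged replicate 3 than in its pair.

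In the BBSome group, Bbs9 had the clearest separation. Its level was 8.47, 8.31 and 8.14 in dark adapted replicates 1, 2 and 3 and 7.61, 7.22 and 7.70 in light damaged replicates 1, 2 and 3. No light damaged array reached the lowest dark adapted one. The change was -0.80 (SE 0.17; limma adjusted p = 0.0581, with the block 0.00636), and it differed between pairs, at -0.87, -1.09 and -0.44. Bbs9 also passed without the block in 3 alternatives besides reference centring: after a further quantile normalization (limma adjusted p = 0.0141), with dim probe sets left out (0.0451) and with all probe sets of a gene averaged (0.0436). Bbs9 has 1 probe set, so its values in the last 2 were those of the main fit. Only the other genes differed there, so these 2 add no measurement of Bbs9.

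Ttc8, also known as Bbs8, had levels of 10.20, 9.92 and 8.92 in the dark adapted and 9.45, 9.07 and 8.78 in the light damaged replicates. Dark adapted replicate 3 lay far below the other dark adapted arrays and below 2 light damaged arrays, so the groups overlapped. The change was -0.58 (SE 0.32; limma adjusted p = 0.625, with the block 0.0393), and the pair differences were -0.76, -0.85 and -0.14.

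The other subunits of the complex did not pass in either test. Bbs1 had a change of -0.41 and Bbs5 of -0.34; both were lower in all 3 pairs, and with the block their adjusted p-values from limma were 0.0563 and 0.1. Bbs4 had -0.16 and was lower in all 3 pairs, but turned to 0.08 when probe sets that can match several transcripts were left out. Bbs2 had -0.23, lower in pairs 1 and 2 and higher in pair 3. Bbs7 had -0.26, and its pairs went different ways, at -0.73, -0.74 and 0.71, since dark adapted replicate 3 stood at 8.19 and the other 2 dark adapted arrays at 9.82 and 9.36.

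Bbs10 and Bbs12 encode chaperonin-like proteins that help to assemble the BBSome. Bbs10 had a change of -0.37, with all light damaged arrays below all dark adapted ones, and an adjusted p of 0.345 (limma) without the block and 0.0956 with it. Bbs12 had -0.11 (interval -0.85 to 0.63), with a higher level in light damaged replicate 3 than in its pair.

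**Figure D4:**
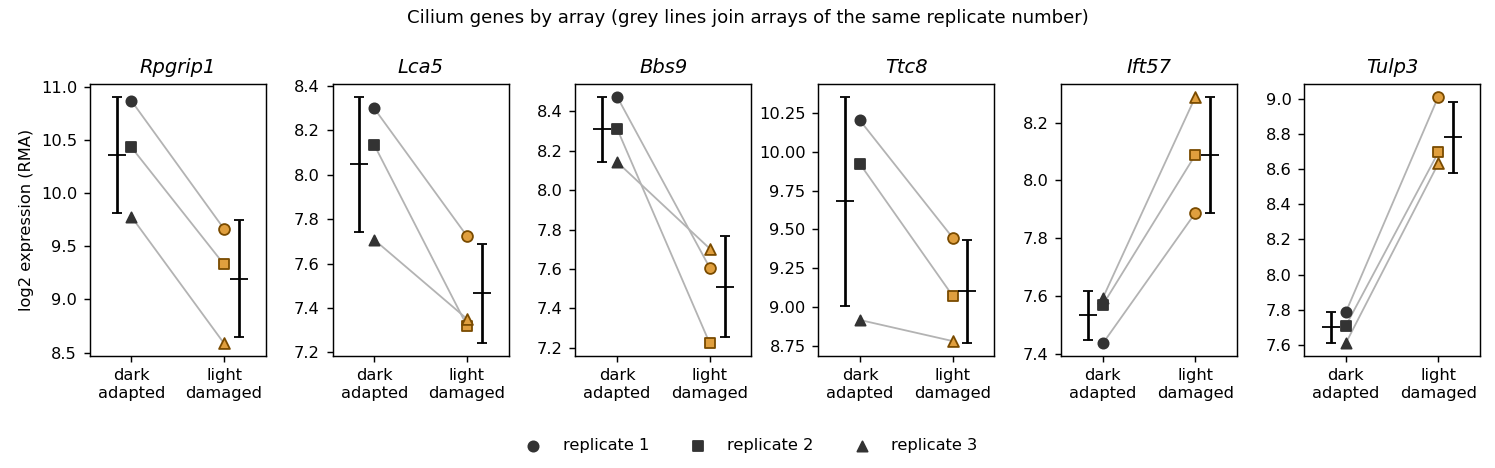
Log2 expression (y axis, a separate scale per panel) in dark adapted and light damaged retinas of the 5 cilium genes that passed with the replicate block and of Tulp3; lines join arrays of the same replicate number, and bars give the mean and SD of 3 arrays. Lines of Rpgrip1, Lca5, Bbs9 and Ttc8 fall in every pair and those of Ift57 and Tulp3 rise, on the deposited scale; with reference centring the change of Ift57 turns to -0.04.

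In IFT-B, Ift57 went against most of the 36 genes. Its level was 7.44, 7.57 and 7.59 in dark adapted replicates 1, 2 and 3 and 7.89, 8.09 and 8.29 in the light damaged ones. All light damaged arrays lay above all dark adapted ones. The change was 0.56 (SE 0.14; limma adjusted p = 0.121, with the block 0.0118), with pair differences of 0.45, 0.52 and 0.70, and it turned to -0.04 with reference centring. A further Ift57 probe set, at 4.87 to 5.65 near the lower quartile of the arrays, had a change of 0.19.

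Ift57 was the only one of the 5 genes with an X-box match that passed in either test. The changes of the others were -0.41 in Bbs1, -0.30 in Nphp4, -0.26 in Bbs7 and -0.16 in Bbs4, so the genes with a match did not share a direction on the deposited scale. Only the X-box spacing given above was searched, so letters with another spacing are not marked. The 250 bases before the start of Ift57, at chr16:49699044-49699293 on the plus strand, are printed 5′ to 3′ with the matched letters in capitals:
Ift57: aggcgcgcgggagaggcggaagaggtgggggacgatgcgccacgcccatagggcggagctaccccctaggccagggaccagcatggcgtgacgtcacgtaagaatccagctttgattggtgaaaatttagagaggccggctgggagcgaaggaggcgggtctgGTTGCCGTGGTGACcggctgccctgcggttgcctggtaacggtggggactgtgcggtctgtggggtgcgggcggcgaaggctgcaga

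The other subunits of IFT-B did not pass in either test. Ift88, a core subunit needed for the outer segment to form, had a change of -0.31, and Ift80 had -0.28. In both, all light damaged arrays lay below all dark adapted ones, and with the block their adjusted p-values from limma were 0.103 and 0.181. Ift20, which also sits at the Golgi, had -0.09, Ift74 -0.05 and Ift172 -0.02. Ift81, the partner of Ift74 in binding tubulin, had -0.10 with pair differences of -0.33, -0.42 and 0.44. Ift46, Ift52 and the small GTPase Ift27 had 0.11, 0.12 and 0.03, and with reference centring they turned to -0.49, -0.48 and -0.57.

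In IFT-A, which serves the return of trains and the entry of membrane proteins, no gene passed. Ift122 had a change of -0.39 and was lower in all 3 pairs, with an adjusted p of 0.717 (limma) without the block and 0.0841 with it. Ift140 had -0.13 and Ift43 -0.05.

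The motors had a median change of 0.08, which turned to -0.52 with reference centring. Kif3a and Kif3b are the motor subunits of heterotrimeric kinesin-2 and Kifap3 is its accessory subunit; their changes were 0.05, -0.22 and 0.11. Kif17, a kinesin-2 that works as a homodimer, had 0.12 and was higher in all 3 pairs. With reference centring the 3 positive values turned to -0.55 for Kif3a, -0.48 for Kifap3 and -0.48 for Kif17. In Kif3a, Kifap3 and Kif17, as in Bbs4, Mak, Nphp4 and Rp2, a further probe set had a change of the opposite sign. None of the 4 motors passed in either test, and the 95% intervals without the block lay between -0.62 and 0.59.

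The intervals cover the spread between the 6 arrays on the deposited scale, for the probe set that stood for each gene. They do not cover the choice of scale or of probe set. Without the block the 95% interval lay within -1 and 1, less than a 2-fold difference either way, in 29 of the 36 genes (92.2% of all genes), including all 13 IFT genes and all 4 motors. The other 7 were Bbs7, Bbs9, Ttc8, Cep290, Rpgr, Rpgrip1 and Lca5. With the block it lay within those limits in 34 genes (96.2% of all genes), all but Rpgrip1 and Bbs9.

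**Figure D5:**
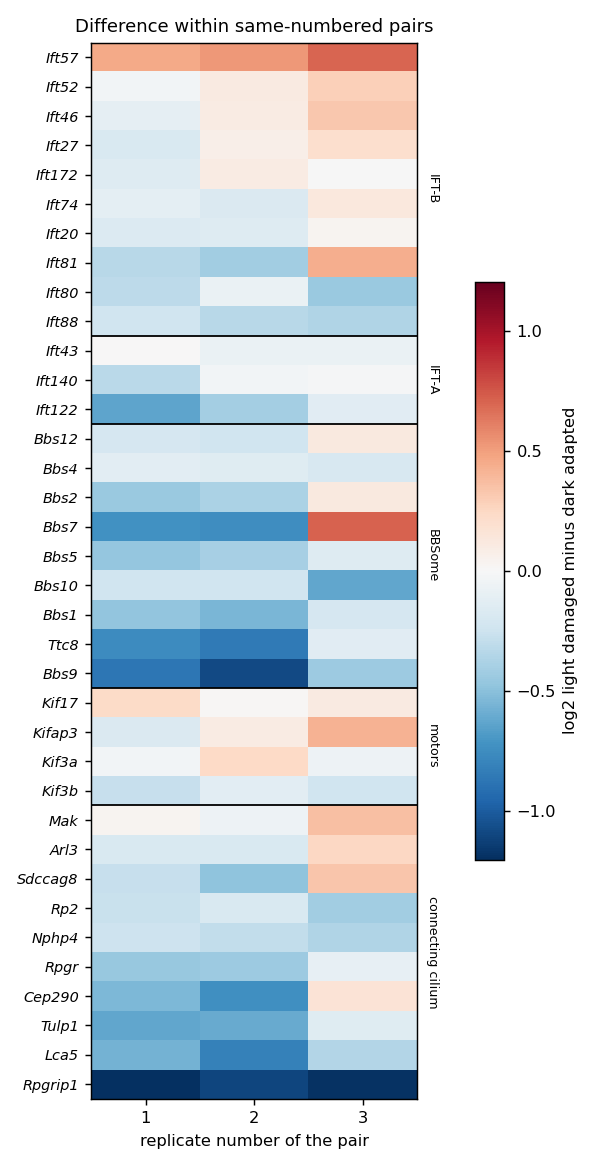
Log2 difference, light damaged minus dark adapted (colour), within each same-numbered pair of arrays (columns) for the 36 cilium genes in their 5 groups; blue is lower and red higher in the light damaged array. Rpgrip1 is dark blue in all 3 pairs (-1.20, -1.10 and -1.19), and Bbs7 and Ift81 change from blue in pairs 1 and 2 to red in pair 3 (0.71 and 0.44).

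The pairs were not alike. Of the 36 genes, 29 had their highest dark adapted value in replicate 1 and 23 their lowest in replicate 3, and the mean of all 36 differed by -0.31, -0.28 and -0.03 in pairs 1, 2 and 3. The upper quartile of all probe sets also fell from dark adapted replicate 1 to 3 (7.65, 7.49 and 7.41), and its part was not tested. The number called with the block moved with the pair left out. Without pair 1, 3 genes were called lower (2.25% of all genes), with Ttc8 no longer among them, and 1 higher (6.06% of all genes). Without pair 2, 2 were called lower (1.86% of all genes) and 0 higher (4.05%), and Ttc8, Lca5 and Ift57 no longer passed. Without pair 3, 16 were called lower (6.6% of all genes) and 1 higher (10.8%). Rpgrip1 and Bbs9 passed in all 3 of these fits, which were chosen after the data were seen.

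Other genes of the same pathways were read from lists of 67 genes, of which 61 were measured (1 of the others, Bbs3, is another name of Arl6): further IFT and dynein genes, BBSome partners, transition zone and basal body genes, axoneme and lipidated cargo genes, and transcription factors of cilium genes. Without the block limma called 1 of the 61 higher (1.74% of all genes) and 0 lower (0.269%); at an unadjusted p under 0.05, 6 were lower (2.42%). With the block 2 were called higher (6.73% of all genes) and 5 lower (2.13%). Their median change was -0.13, with 40 of 61 negative.

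Tulp3, an adaptor that brings membrane proteins to IFT-A, rose in both tests. Its level was 7.79, 7.71 and 7.61 in dark adapted replicates 1, 2 and 3 and 9.01, 8.70 and 8.63 in the light damaged ones. The groups were far apart, and the change was 1.08 (2.11-fold; SE 0.15; limma adjusted p = 0.0084, with the block 0.00032). Its other probe sets had changes of 0.78 and 0.06, and with the probe sets averaged the change was 0.64 (adjusted p = 0.0627).

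Of the 2 genes with the smallest p in each further list, Cc2d2a of the transition zone had a change of -0.63 (limma adjusted p = 0.155, with the block 0.00578). Cdhr1, a cadherin at the base of the outer segment, had -0.77 (0.0848, with the block 0.00215), and Rp1l1, a protein of the axoneme, -1.13 (0.181, with the block 0.00035). Wdr60, an intermediate chain of the ciliary dynein, had -0.50 (0.372, with the block 0.0176). The small GTPase Rab11a had 0.53 (0.504, with the block 0.0204). Unc119, a carrier of lipid-modified transducin, was the fifth gene lower with the block, at -0.50 (0.241, with the block 0.0177), and was named after its values were seen. Lztfl1, a BBSome regulator, and Fam161a, a protein of the ciliary microtubules, had -0.52 and -0.51, and neither passed in either test.

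The last list held 6 RFX factors, the X-box binding proteins, and Foxj1, a forkhead factor. None of these 7 genes passed in either test, and none had an unadjusted p under 0.05 in limma without the block. The median change of the 7 was 0.01, and those with the smallest p were Rfx2 at 0.24 and Rfx3 at -0.20.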

How the data were processed

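The deposited values are log2 expression values that the authors made with RMA, per the submitters' processing notes, whose version the sources used here do not give. RMA subtracts background, equalises the arrays' distributions of probe values and summarises each probe set, which hides any difference in the amount of RNA per retina. The deposited probe set values were not fully equal in distribution. Their upper quartile ran from 7.41 (dark adapted replicate 3) to 7.67 (light damaged replicate 1). The values were used as deposited. Of 45101 probe sets, 64 were controls, 34945 had 1 gene in GEO's platform annotation, 932 several and 9160 none; 34741 matched RefSeq genes, used for names.

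The 3 light damaged arrays were compared with the 3 dark adapted ones, grouped by title, with limma 3.58.1 (lmFit and eBayes) in R 4.3.3 over all 18193 genes; the number of arrays limits the precision. The scripts were tested on simulated data. The members and lists were chosen with earlier results of these data known. Named were all 38 members, with every array's value for those that passed with or without the block and the 3 highest in level, further genes that passed without the block, and the 2 with the smallest p per further list.

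Replicate numbers come from the titles. Deviations of same-numbered arrays from their group means correlated at 0.746, 0.629 and 0.447 over all genes (other combinations -0.486 to 0.0292). Each was over 0.1, so the replicate number was also fitted as a block, beside the main test without it. This pairing rests on the same expression values, and the labels do not say what a number marks.

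The alternatives were a further quantile normalization, centring on reference genes, the replicate block, a filter on dim probe sets, other choices of probe set, a mean-variance trend and leaving out arrays. Background correction and slide could not be varied from these values.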

Additional observations from a re-analysis of the deposited data

How the results depend on the processing

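Over all genes, 365 were called (49 lower, 316 higher). With the replicate block 1613 were called (388 lower, 1225 higher), with reference centring 12120 (11938 lower, 182 higher), and a further quantile normalization gave 162 lower. Leaving out 1 array gave 151 to 417 (9 to 82 lower, 141 to 384 higher); the total fell by more than 1.5 times without dark adapted replicate 2 or any of the light damaged replicates. With the replicate block and a pair left out, it was 1511 without pair 1 (409 lower, 1102 higher), 1075 without pair 2 (338 lower, 737 higher) and 3166 without pair 3 (1200 lower, 1966 higher).

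Among the 36 cilium genes, 0 were called lower by limma without the block (0.269% of all genes). The count was 2 after a further quantile normalization (0.89% of all genes), 33 with reference centring (65.6%) and 4 with the replicate block (2.13%). It was 1 (Bbs9) with dim probe sets left out (64 of all 11565 genes), which kept 33 of the cilium genes. It was also 1 (Bbs9) with all probe sets averaged (64 of all 18193 genes). With the replicate block and pair 1, 2 or 3 left out it was 3, 2 or 16 (2.25%, 1.86% and 6.6% of all genes). The count higher was 0 (1.74% of all genes). It was 1 with the replicate block (6.73%), also without pair 1 (6.06%) or pair 3 (10.8%), and 0 without pair 2 (4.05%). Leaving out 1 array without the block, the mean-variance trend and the omission of probe sets that can match several transcripts brought no call. Of the further genes, 0 were called lower (0.269% of all genes). That count was 2 after a further quantile normalization (0.89%), 51 with reference centring (65.6%) and 5 with the replicate block (2.13%). With the block it was 4, 4 and 20 without pair 1, 2 or 3 (2.25%, 1.86% and 6.6%). It was 0 to 1 without 1 array, the 1 without dark adapted replicate 3 (82 of all 18193 genes). The number higher was 1 (1.74%). It was 2 with the replicate block (6.73%), whichever pair was left out (6.06%, 4.05% and 10.8%), and 0 with all probe sets averaged (330 of all 18193 genes).

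With reference centring the median change was -0.78 for the 36 genes, -0.63 for IFT-B, -0.72 for IFT-A, -0.94 for the BBSome group, -0.52 for the motors, -0.91 for the connecting cilium group and -0.73 for the further genes. The IFT-B median ranged from -0.11 to 0.12 without 1 array. That of the 36 genes ranged from -0.29 to -0.05, that of the BBSome group from -0.45 to -0.24 and that of the connecting cilium group from -0.51 to -0.10. In these 3 the value nearest zero came without dark adapted replicate 1. All 8 positive changes turned negative with reference centring, which moves every gene down alike: Ift27 -0.57, Ift46 -0.49, Ift52 -0.48, Ift57 -0.040, Kif3a -0.55, Kifap3 -0.48, Kif17 -0.48 and Mak -0.48. A further quantile normalization turned Ift46 to -0.027, Kif3a to -0.075, Kifap3 to -0.024 and Mak to -0.028. The mean of all probe sets turned Kif17 to -0.0013, and the omission of probe sets that can match several transcripts turned Bbs4 to 0.077; the cause was not tested.

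Leaving out 1 array, the sign was not kept in Ift27 (-0.27 to 0.24), Ift46 (-0.051 to 0.25), Ift74 (-0.14 to 0.090), Ift81 (-0.52 to 0.21), Ift172 (-0.086 to 0.054), Ift43 (-0.096 to 0.0067), Bbs7 (-0.72 to 0.093), Bbs12 (-0.45 to 0.13), Kif3a (-0.074 to 0.21), Kifap3 (-0.030 to 0.34), Sdccag8 (-0.27 to 0.018), Arl3 (-0.18 to 0.064) and Mak (-0.012 to 0.22). With the replicate block it turned without pair 1 in Ift81 (0.013), Ift172 (0.044) and Arl3 (0.031), without pair 2 in Ift74 (0.0069), Ift81 (0.054), Kif3a (-0.047), Sdccag8 (0.027) and Arl3 (0.033), and without pair 3 in Ift27 (-0.058), Ift46 (-0.0048), Kifap3 (-0.037) and Mak (-0.012). The 5 genes called with the block kept their sign under all alternatives, except Ift57 with reference centring. The replicate block changed no other call among the 36 genes. None of these genes had its mean below the lower quartile of the arrays, where probe sets are least certain.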
